A study of Mus musculus with 41 samples.

Results

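The comparison described here is the addition of transforming growth factor β (TGFβ) to mouse microglia kept in culture for 7 d. It rests on 2 RNA libraries labelled as cultured with IL-34 and TGFβ and 5 labelled as cultured with IL-34 alone, out of 21 RNA libraries and 41 libraries of all kinds in the series. All 7 came from C57Bl6 mice whose sorted microglia were plated in DMEM/F12 with 5% fetal bovine serum, given IL-34 daily and left without a change of medium for 7 d. The comparison takes in every gene of the count table that had enough counts to be tested. The labels used here give no TGFβ isoform or dose and no age or genotype beyond the strain. Nothing says that the libraries of a group came from separate mice or cultures, so the p-values measure spread between libraries. That spread was estimated over 17 microglial libraries. Besides the 7 compared, they take in microglia taken straight from brain and cultures labelled 6 h and 24 h. Microglia sorted straight from brain (ex vivo, 5 libraries) serve as a reference level. Every library was a bulk preparation of 100000 to 150000 cells, in which fewer cells expressing a gene and less RNA per cell cannot be told apart.

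TGFβ is a secreted cytokine that is held latent in the matrix or on cell surfaces until it is released. It binds a pair of receptor kinases, TGFBR2 and TGFBR1, and the latter phosphorylates SMAD2 and SMAD3, which enter the nucleus with SMAD4 and change transcription. Targets include inhibitors that restrain the pathway, such as SMAD7, SKI and SKIL, and matrix genes such as the one for fibronectin. In the brain TGFβ is known as a signal that microglia need to keep their resident, or homeostatic, gene set, while IL-34 is a ligand of the CSF1 receptor on which microglia depend for survival.

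Total counts were 24186690 to 28024478 per library without TGFβ and 23896838 and 28841472 with it. The 2 TGFβ libraries correlated with each other at r = 0.980 across genes and with the others at 0.936 to 0.958. Among the 5 libraries without TGFβ, replicates 2 and 3 correlated with each other at 0.993 and with replicates 1, 4 and 5 at 0.957 to 0.979. Replicates 1, 4 and 5 correlated among themselves at 0.981 to 0.991. Replicates 2 and 3 stood further apart in the ribosomal precursor Rn45s, at 570.5 and 551.5 CPM (counts scaled to a library of 1000000). It was at 3538 to 4845 in replicates 1, 4 and 5 and at 4471 and 3888 with TGFβ. The cells carried macrophage-lineage markers: the summed level of 8 microglia and macrophage markers was 7370 to 8425 CPM without TGFβ and 10620 and 10210 with it. Summed neuronal markers were 0.571 to 1.19 CPM and then 2.22 and 0.936, and astrocyte markers 8.97 to 12.9 and then 21.2 and 9.33. Among the astrocyte markers Aqp4 and Slc1a3 were called higher and Aldh1l1 lower. Oligodendrocyte markers summed to 47.3 to 71.6 and then 52.3 and 63.8 CPM, with Mag called higher. Mural-cell markers summed to 3.02 to 21.7 CPM without TGFβ and to 126 and 353 with it. Of that sum, 98.8% with TGFβ was Cspg4. Pdgfrb, the other mural marker called higher, was at 0 to 0.0731 and then 0.209 and 0.139 CPM, and Rgs5 and Kcnj8 were at 0 in all 7 libraries. Endothelial markers summed to 12.2 to 38.5 and then 80.2 and 41.1 CPM. Of that sum, 65.45% with TGFβ was Flt1, at 9.75 to 35.4 and then 55.1 and 24.2 CPM, without a call. Pecam1 was the endothelial marker called higher, at 1.81 to 2.65 and then 24.0 and 15.4 CPM. In the sorted ex vivo microglia Pecam1 was at 34.5 to 42.3 CPM and Pdgfrb at 0.702 to 1.49, above their levels with TGFβ. Cspg4 was at 0.225 to 0.745 and Flt1 at 0.450 to 1.60 CPM ex vivo, below theirs. Cldn5, Emcn, Ly6c1 and Slco1a4 were at 0 in all 7. The part of these markers in the results was not tested.

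With TGFβ, 1325 of the 13840 genes tested were higher (9.57%) and 902 were lower (6.52%), together 16.1% (edgeR quasi-likelihood test, Benjamini-Hochberg adjusted p under 0.05). Changes of at least 2-fold made up 818 of the rises and 431 of the falls, and changes of at least 4-fold 404 and 182. The median log2 fold change over all genes tested was -0.04. With the authors' deposited TPM values and limma the balance turned: 942 genes were higher and 1547 lower, so that 37.9% of the calls were rises against 59.5% in the count test. On that scale the median gene lay at -0.13. Either TGFβ library moved the falls by more than 1.5 times: 935 rises and 411 falls were called without TGFβ replicate 1, and 885 and 375 without TGFβ replicate 2.

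**Figure D1:**
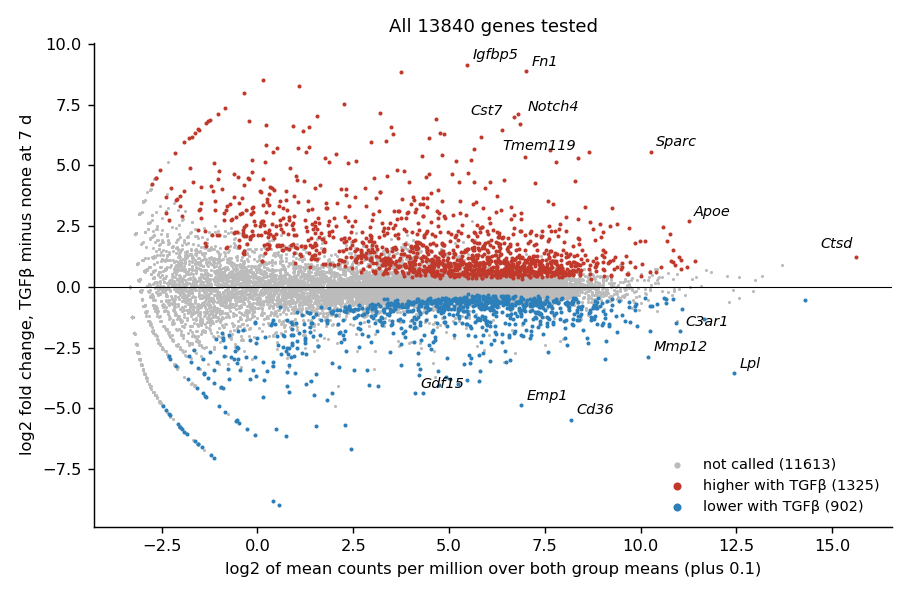
Each point is 1 of the 13840 genes tested, with the log2 of its mean level on the x axis (CPM plus 0.1) and its log2 fold change, TGFβ minus none, on the y axis. Red points are the 1325 genes called higher and blue points the 902 called lower, and the named genes are described in the text.

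The inhibitors that SMAD signalling induces moved in 1 direction. Of 12 tested, 8 rose (66.7%, against 9.57% of all genes tested), none fell (against 6.52%) and 4 did not pass the test, with a median log2 fold change of 1.07 (edgeR; 9 higher and 0 lower at unadjusted p under 0.05, and 0 lower with DESeq2). Pmepa1, whose membrane protein holds SMADs away from the receptor, stood at 136, 46.7, 54.8, 46.2 and 61.6 CPM in replicates 1 to 5 without TGFβ and at 628 and 734 with it. Every TGFβ library was thus above every other, and the rise was 9.86-fold (log2 fold change 3.301 ± 0.30, SE, adjusted p = 8.1e-07, edgeR). Replicate 1, the highest without TGFβ, was also the highest of the 5 for Spsb1 and Skil. Spsb1, part of a ubiquitin ligase that acts on the type II receptor, was at 40.8, 12.8, 16.01, 22.5 and 25.8 CPM and rose to 128 and 109, a log2 fold change of 2.33 ± 0.27 (SE, adjusted p = 1.4e-05). Ldlrad4, a relative of Pmepa1 that also binds SMADs, was at 16.3–32.7 CPM and then 85.3 and 67.8 (3.15-fold).

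Smad7, the inhibitory SMAD, stood at 52.4, 54.7, 60.8, 38.1 and 40.3 CPM without TGFβ and at 100.5 and 106 with it. Its groups did not overlap and differed 2.096-fold (log2 1.07 ± 0.19, SE, adjusted p = 0.00082, edgeR). Smurf1, a ubiquitin ligase that SMAD7 brings to the receptor, rose 2.23-fold, from 62.5–111 to 186 and 181 CPM. The paired co-repressors differed in how firmly they were called. Ski was at 384, 189.6, 193, 288 and 344 CPM and then 527 and 645 (adjusted p = 0.0029), although the call was lost without TGFβ replicate 2. Skil was at 452, 215, 235, 292 and 321 CPM and then 513 and 503 (log2 0.74 ± 0.24, SE, adjusted p = 0.039), with no overlap. That call was lost when any library other than replicate 1 without TGFβ was left out. Bambi, a decoy receptor, reached 14.8 and 9.13 CPM from 1.66–5.01 (adjusted p = 0.041). Its call was likewise lost without either TGFβ library, and without any of replicates 2 to 5 of the other group. The 4 inhibitors not called were Smad6, Smurf2, Tgif1 and Tgif2.

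At the receptors, Tgfbr1 moved and Tgfbr2 gave no call. Tgfbr1, the signalling kinase, was at 659, 292, 329.9, 320.5 and 558 CPM without TGFβ and at 1704 and 1492 with it, a rise of 3.701-fold (log2 1.89 ± 0.29, SE, adjusted p = 0.00022, edgeR). Ex vivo microglia held 2779 ± 707 CPM (SD, n = 5), so the TGFβ libraries lay between those without TGFβ and the ex vivo ones. Tgfbr2, the ligand-binding partner, overlapped fully, at 699, 752, 952, 656 and 827 and then 835 and 667 CPM (log2 -0.05 ± 0.15, SE, adjusted p = 0.88). Acvr2b, an activin receptor, was at 12.3–20.1 CPM and then 38.1 and 23.96 (2.004-fold), a call lost without TGFβ replicate 1. The co-receptor Tgfbr3 fell from a low level of 0.515–2.01 CPM to 0.274 and 0.283 and lost its call without either TGFβ library. The other 8 of the 11 receptors tested did not pass.

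Among 5 SMAD transducers, Smad3 was called higher, Smad1 lower and Smad2, Smad4 and Smad5 not at all. Smad3 lay at 73.2, 58.1, 59.4, 80.8 and 76.6 CPM and then 90.4 and 107 (log2 0.504 ± 0.17, SE, adjusted p = 0.048). This is a small difference whose call was lost without either TGFβ library or any of replicates 1 to 3 of the other group. Smad1, which carries bone morphogenetic protein signals, fell from 48.96–67.5 to 38.3 and 42.5 CPM, by 0.52 on the log2 scale, and its call too was lost without either TGFβ library.

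The genes that make, store and release the ligands changed unevenly. Tgfb1, the form that microglia express, stood at 404, 396, 411, 417 and 471 CPM and then 528 and 437; the groups overlapped (adjusted p = 0.39). Tgfb2 was near the detection limit throughout, at 0–0.334 CPM and then 1.23 and 1.03 (adjusted p = 0.0083), and its call was lost without TGFβ replicate 1. Gdf15, a stress-induced member of the wider family, fell by 4.38 ± 0.50 (SE) on the log2 scale, from 19.3, 31.5, 26.4, 47.4 and 38.5 CPM to 1.92 and 1.24 (adjusted p = 1.3e-05). Its relative Gdf3 went from 0.669–1.58 to 0.0457 and 0.177 CPM, a call lost without either TGFβ library. Nrros, which tethers latent TGFβ1 on microglia, fell from 244, 350.4, 361, 318 and 289 CPM to 122 and 95.4. The difference of 2.88-fold (adjusted p = 3.5e-05) was without overlap and held in every alternative fit. The latent-TGFβ-binding gene Ltbp3 was at 3.88–9.81 CPM and then 13.2 and 12.9, a call lost without either TGFβ library and without replicates 1, 4 and 5 of the other group together, and 6 of the 8 genes of latency and release did not pass. Over the whole pathway list the median log2 fold change was 0.35. Of 42 genes tested, 13 rose (31%, against 9.57% of all genes tested), 5 fell (11.9%, against 6.52%) and 24 did not pass. The rises numbered 8 and the falls 2 without TGFβ replicate 1, and 9 and 2 without TGFβ replicate 2.

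**Figure D2:**
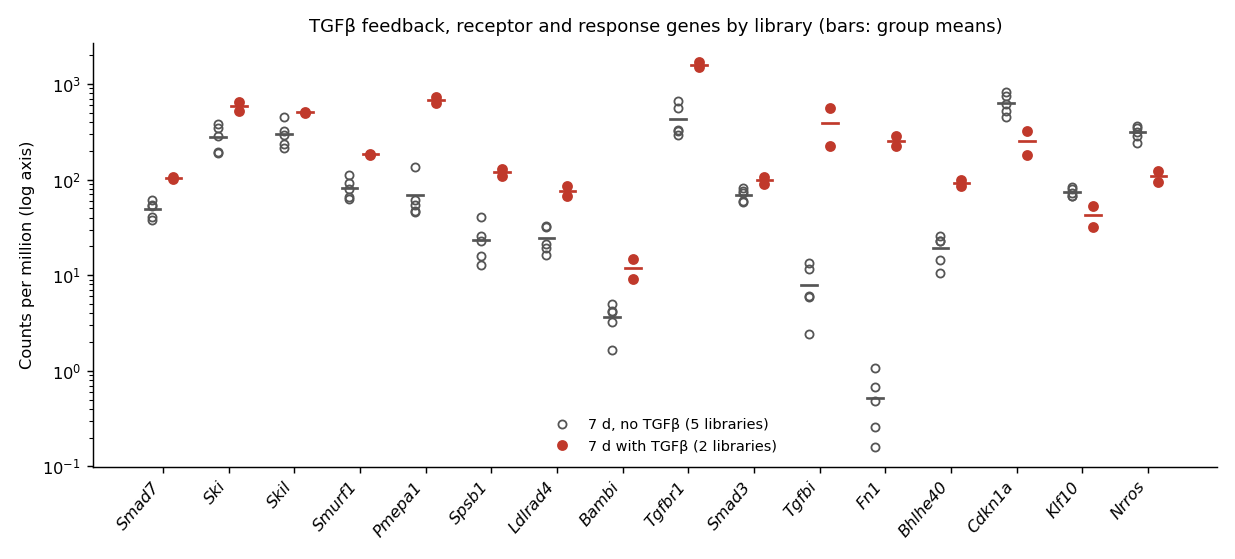
CPM on a log axis for genes of the TGFβ pathway and response, with open grey circles for the 5 libraries without TGFβ, red circles for the 2 with TGFβ and bars for the group means. Pmepa1, Tgfbi and Fn1 show the widest gaps between groups, and Cdkn1a, Klf10 and Nrros lie lower with TGFβ.

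Of 29 tested genes listed as TGFβ responses in other cell types, 11 rose (37.9%, against 9.57% of all genes tested). A further 2 fell (6.9%, against 6.52%) and 16 did not pass, with a list median log2 fold change of 0.61. Of the 11 rises, Smad7, Skil, Pmepa1, Ldlrad4, Smurf1 and Spsb1 are feedback inhibitors already counted above. Tgif1 and Smurf2, which did not pass, are also in both lists. The share of rises is therefore not separate from that of the inhibitors. Fn1, which encodes fibronectin, went from 0.479, 1.06, 0.669, 0.158 and 0.256 CPM to 224 and 288. That is a change of 472-fold (log2 8.88 ± 0.79, SE, adjusted p = 1.4e-06) against a baseline of a few reads per library. Its mean ex vivo was 7.14 ± 6.73 CPM (SD, n = 5), far below the TGFβ libraries. Tgfbi, a matrix protein named for its induction by TGFβ, rose from 11.7, 13.4, 6.06, 5.86 and 2.43 to 222 and 562 CPM, and TGFβ replicate 2 held more than replicate 1. Bhlhe40, a basic helix-loop-helix repressor, was at 10.5–25.9 CPM, then 98.1 and 86.6, while the ex vivo mean was 1.15 ± 0.396 (SD, n = 5). Itgae, the αE integrin chain, stayed low at 1.096 and 1.59 CPM from 0.427–0.884, and its call was lost without TGFβ replicate 2 or without replicate 4 or 5 of the other group.

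The pair that fell are both known as induced by TGFβ elsewhere. Cdkn1a, the cell-cycle inhibitor p21, was at 612, 523, 448, 742 and 825 CPM and then 179 and 322, a fall by 1.33 ± 0.41 (SE) on the log2 scale (adjusted p = 0.038, edgeR). Klf10, the TGFβ-inducible early gene, was at 73.1, 78.9, 67.02, 83.8 and 66.8 CPM and then 32.2 and 53.5 (log2 -0.79, adjusted p = 0.032). Neither overlapped between groups. The Cdkn1a call was lost without either TGFβ library or any of replicates 1, 4 and 5 of the other group, and the Klf10 call without TGFβ replicate 1 or replicate 4 of the other group.

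The rises of largest size, among called genes whose libraries did not overlap and whose higher group averaged 20 CPM or more, were Igfbp5, Fn1, Acsbg1, Notch4, Cst7, Olr1, Mrc2, Spns2, Chst1 and Ass1, with log2 fold changes from 6.31 to 9.14. Igfbp5, which binds insulin-like growth factors, was at 0.0396–0.297 CPM without TGFβ and at 70.8 and 106 with it. Notch4, a Notch receptor best known from endothelium, stood at 1.36, 1.82, 2.01, 1.39 and 1.49 CPM and then 158 and 288 (log2 7.102 ± 0.28, SE, adjusted p = 6.0e-11). Cst7, or cystatin F, an inhibitor of lysosomal cathepsins, stood at 1.22, 1.82, 2.15, 1.74 and 1.11 CPM and then 231 and 179 (log2 6.99 ± 0.27, SE, adjusted p = 6.0e-11). Both genes were low in all 5 libraries without TGFβ and far above that in both with it. Mrc2, a collagen-binding endocytic receptor, went from 0.158–4.35 to 236 and 220.2 CPM, and Olr1, a scavenger receptor for oxidised lipoprotein, from 0.158–0.669 to 26.9 and 72.2. Spns2, an exporter of sphingosine 1-phosphate, reached 29.2 and 14.8 CPM from 0.0368–0.409, and Chst1, a sulfotransferase, 168 and 163 from 0.515–3.98. Acsbg1, an acyl-CoA synthetase, was at 0–0.147 CPM, then 8.95 and 44.4, so its 2 TGFβ libraries differed widely. Ass1, argininosuccinate synthase, went from 0.411–1.19 to 36.04 and 78.4 CPM, but it shares reads with a near-identical pseudogene, Gm5424, and its value is uncertain.

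The falls of largest size by the same rule were Cd36, Emp1, Gdf15, Slc13a3, Folr2, Oas2, Anpep, Clec4a1, Mrc1 and Mmp13, with log2 fold changes from -5.47 to -3.71. Cd36, a scavenger receptor and fatty-acid translocase, stood at 465, 835, 691, 439 and 424 CPM without TGFβ and 7.903 and 17.7 with it (log2 -5.47 ± 0.73, SE, adjusted p = 7.0e-05). Emp1, an epithelial membrane protein, went from 166–313 to 5.48 and 9.98 CPM. Folr2 and Mrc1, a folate receptor and the mannose receptor, both mark macrophages of the brain borders. They fell from 21.5–81.3 to 3.198 and 3.01 and from 46.5–83.6 to 4.57 and 4.21 CPM. The summed level of 8 border-macrophage markers was 263 to 538 CPM without TGFβ and 192 and 434 with it, and Mrc1 was its only called member. Of that sum, 77.2% with TGFβ was Siglec1, which overlapped, at 74.8 to 308 and then 134 and 349 CPM. Cd163, Pf4, Cbr2 and Ms4a7 were, like Mrc1, lower in both TGFβ libraries than in every library without it, but were not called. How large a share of all genes tested lay this way was not counted, so no fall is inferred for the uncalled genes. Lyve1 and F13a1 overlapped between the groups. Anpep, an aminopeptidase, went from 80.8–125 to 3.02 and 11.1 CPM. Slc13a3, a dicarboxylate transporter, and Clec4a1, a lectin receptor, varied widely without TGFβ, at 51.2, 16.1, 15.3, 83.4 and 24.2 and at 119.8, 19.3, 25.1, 165 and 86.2 CPM. With TGFβ they were at 1.69 and 2.02 and at 3.97 and 7.75, below all of those, and the call of Clec4a1 was lost without either TGFβ library.

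The homeostatic microglial genes formed the list with the most rises of the 16 described. Of 35 tested, 25 rose (71.4%, against 9.57% of all genes tested), 2 fell (5.71%, against 6.52%) and 8 did not pass. The median log2 fold change was 1.89. Tmem119, a membrane protein used to mark microglia, stood at 27.4, 14.2, 17.5, 9.62 and 14.6 CPM without TGFβ and at 779 and 787 with it. That is 46.98-fold (log2 5.55 ± 0.34, SE, adjusted p = 9.9e-09, edgeR), against 2814 ± 397 CPM (SD, n = 5) ex vivo. Sparc, a secreted matrix-binding protein, was at 45.99, 58.6, 78.2, 29.7 and 43.4 CPM and then 3201 and 1618; the ex vivo libraries ranged from 2599.7 to 3369. Siglech, a sialic-acid-binding receptor, was nearly absent at 1.95, 1.47, 1.75, 0.317 and 0.811 CPM and reached 62.1 and 48.5 (43.2-fold), with 1332 ± 112 (SD, n = 5) ex vivo. The list's purinergic and chemokine receptors had smaller fold changes. P2ry12, the ADP receptor of microglial processes, was at 46.4, 37.2, 43.5, 30.4 and 39.9 CPM, then 263 and 126 (4.92-fold, adjusted p = 0.00040) and 4413 ± 1515 (SD, n = 5) ex vivo. Cx3cr1, the fractalkine receptor, was at 1096, 1034, 1219, 608 and 857 and then 2963 and 2486 CPM (2.83-fold, adjusted p = 7.6e-05), and ex vivo at 8982 ± 859 (SD, n = 5).

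Csf1r, the receptor for the IL-34 that all 7 cultures received, was at 1858, 1608, 1892, 1815 and 1714 CPM and then 3761 and 3592. The groups did not overlap (log2 1.05 ± 0.14, SE, adjusted p = 6.6e-05, edgeR), and both lay below the ex vivo level of 11892 ± 948 (SD, n = 5). Selplg, the selectin ligand PSGL-1, and Golm1, a Golgi protein, varied little within groups. Selplg was at 193, 182, 198, 199 and 179 CPM and then 1128 and 1163, and Golm1 at 120.4, 116, 115, 87.4 and 119 and then 732 and 672. A pair of genes exceeded every ex vivo library. Gpr84, a receptor for medium-chain fatty acids that inflammatory stimuli raise, went from 7.85–22.9 to 411 and 874 CPM, while the ex vivo range was 73.1 to 124. Itgb5, an integrin β chain that pairs with αV, went from 358–536 to 3018 and 2215 CPM, with 1373 to 2049 ex vivo.

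Not every homeostatic gene rose. Trem2, a lipid-sensing receptor, overlapped at 679.5–1195 and then 834 and 596 CPM. Gas6, a ligand of the Axl and Mertk receptors, fell from 1046, 1001, 1046, 1030.5 and 1081 to 367 and 207 CPM. Set beside the ex vivo mean of the same gene, the median homeostatic gene stood at 9.39% without TGFβ and 30.8% with it (35 genes). For 26 of the 35 both TGFβ libraries were below every ex vivo library, which held for 29.4% of all genes tested, and 2 were above all of them, against 30.3% of all genes. Leaving out single libraries gave 21 to 25 rises.

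**Figure D3:**
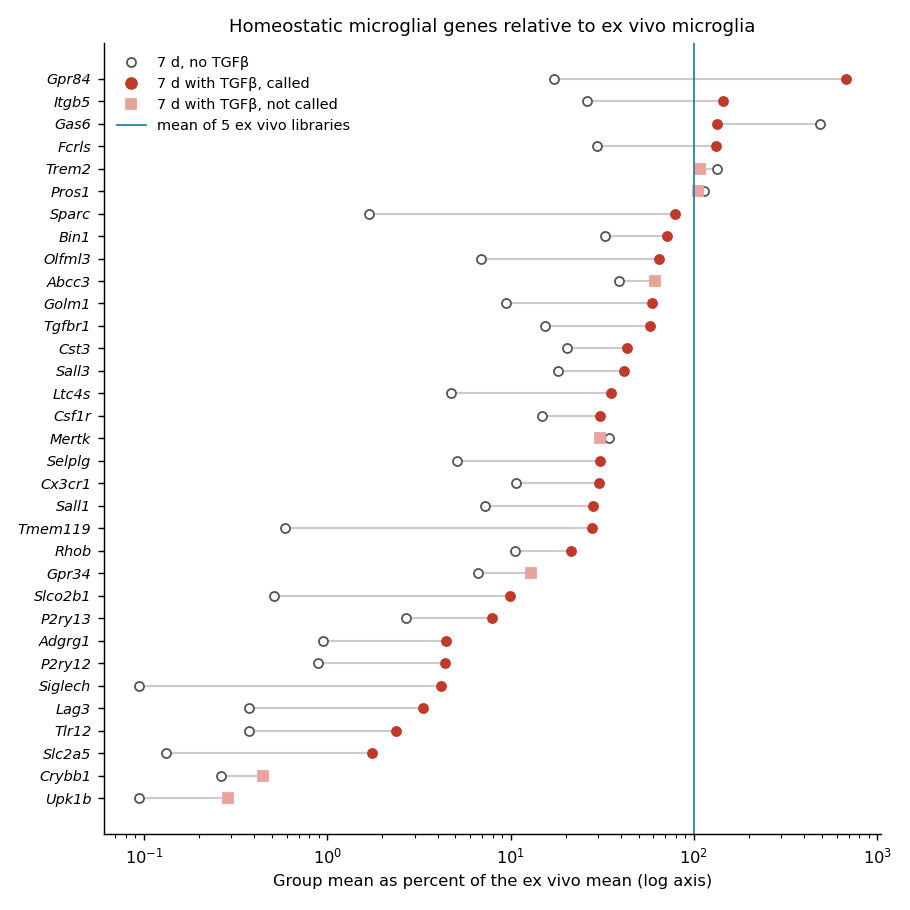
Mean level of 33 of the 35 homeostatic genes tested, each as a percent of its ex vivo mean on a log axis, without TGFβ (open circles) and with it (red, or pale squares where not called), and the blue line is the ex vivo mean. Most genes moved to the right with TGFβ and stayed left of the line, while Gas6, called lower, moved left.

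Peaks of chromatin marks deposited for ex vivo and 7 d microglia, both from libraries other than those used for RNA and none with TGFβ, were counted within 1000 bp of either end of each RefSeq gene (GRCm38.p6). Of the genes tested, 99.6% were matched. An H3K27ac peak, a mark of active promoters and enhancers, was called ex vivo but not at 7 d at 7.26% of all genes. The share was 14.8% among genes higher with TGFβ, 24.0% among those higher by at least 4-fold and 3.34% among those lower, with 5.0% among those lower by at least 4-fold. The opposite pattern, a peak at 7 d but not ex vivo, was found at 3.84% of all genes, 3.86% of those higher, 6.19% of those higher by at least 4-fold, 7.80% of those lower and 20.6% of those lower by at least 4-fold. Open chromatin by ATAC-seq differed at fewer genes: it was called ex vivo only at 2.36% of all genes and 8.66% of those higher by at least 4-fold, against 2.78% of those lower by as much. At 7 d only it was called at 3.32% of all, 12.8% of those lower by at least 4-fold and 6.44% of those higher by at least 4-fold. Of the ATAC-seq libraries pooled as 7 d, replicate 2 was recorded as cultured for 8 d. Any ex vivo H3K27ac peak was found at 76.3% of all genes, 58.4% of those higher by at least 4-fold and 41.7% of those lower by as much. In RNA, all 5 libraries without TGFβ lay below every ex vivo library for 60.7% of genes called higher, against 26.1% of all tested. They lay above every one for 64.5% of those called lower, against 26.1%. The calls rest on that same 7 d RNA, and its part in the peak shares was not tested. These are descriptions from pooled peak lists, with no test. The ex vivo H3K27ac list held 24520 peaks over 61.29 Mb and the 7 d list 31349 peaks over 50.90 Mb.

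Siglech, Sparc and Ptgs1, named after their values were seen, were chosen for their start site windows, which H3K27ac covered ex vivo and not at 7 d. Counted within 1000 bp of either gene end, Ptgs1 had H3K27ac peaks in both and so is not among the ex vivo-only genes above. The ATAC window was open in both for Siglech and Ptgs1 and ex vivo only for Sparc, and PU.1 peaks, from ex vivo cells, covered those of Siglech and Ptgs1. The RefSeq sequences run 5′ to 3′ on the gene's strand, from 250 bases before to 50 after the start. Capitals mark CAGAC or its reverse complement GTCTG, the short element that SMAD3 and SMAD4 bind. Siglech lies at chr7:55767934-55768233, plus strand, Sparc at chr11:55420031-55420330, minus strand, and Ptgs1 at chr2:36230176-36230475, plus strand (GRCm38.p6).
Siglech: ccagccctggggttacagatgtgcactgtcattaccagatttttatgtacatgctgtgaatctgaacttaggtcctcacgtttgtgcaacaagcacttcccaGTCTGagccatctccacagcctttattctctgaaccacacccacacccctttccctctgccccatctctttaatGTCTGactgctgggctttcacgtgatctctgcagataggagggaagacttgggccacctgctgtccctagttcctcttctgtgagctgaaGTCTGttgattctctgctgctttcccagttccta
Sparc: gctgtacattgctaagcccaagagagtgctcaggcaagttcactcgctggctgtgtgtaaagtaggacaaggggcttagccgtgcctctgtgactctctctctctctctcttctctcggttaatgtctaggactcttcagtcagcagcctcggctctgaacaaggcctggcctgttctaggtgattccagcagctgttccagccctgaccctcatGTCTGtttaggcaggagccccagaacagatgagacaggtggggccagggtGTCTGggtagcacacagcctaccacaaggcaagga
Ptgs1: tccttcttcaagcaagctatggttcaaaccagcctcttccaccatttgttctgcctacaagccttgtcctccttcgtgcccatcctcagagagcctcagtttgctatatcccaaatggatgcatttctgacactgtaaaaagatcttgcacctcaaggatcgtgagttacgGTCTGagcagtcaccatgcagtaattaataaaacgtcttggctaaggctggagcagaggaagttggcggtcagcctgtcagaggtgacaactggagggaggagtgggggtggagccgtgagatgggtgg
The windows hold 3, 2 and 1 matches. Such matches are common, as 49.6% of 32851 promoter windows of this length hold at least 1, while the full palindrome GTCTAGAC, in 0.213% of them, is in none of the 3. Promoter entries matched only 75.6% of the genes tested, so no share of motifs over gene sets is given.

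Of 30 microglial transcription factors tested, 9 rose (30%, against 9.57% of all genes), 4 fell (13.3%, against 6.52%) and 17 did not pass (median log2 fold change 0.05). Sall1, a zinc-finger factor that in the brain is specific to microglia, was at 175, 80.5, 108, 157 and 175 CPM and then 762 and 317. The rise was 3.88-fold (log2 1.96 ± 0.28, SE, adjusted p = 9.4e-05, edgeR), the 2 TGFβ libraries differed from each other, and ex vivo cells held 1925 ± 234 (SD, n = 5). Bach2 and Ets1 rose 3.503-fold and 2.23-fold, to 44.2 and 29.98 and to 148 and 142 CPM. Irf8, required for microglia to form, went from 276–349 to 572 and 634 CPM, and Ikzf1 from 142–184 to 317 and 268. Maf, a leucine-zipper factor of macrophages, fell by 1.54 on the log2 scale, from 729, 609, 615, 833 and 689.7 to 323 and 154 CPM, and Mef2c by 1.04, from 440.5–666 to 306 and 227. Both calls were lost without TGFβ replicate 2, which left 1 fall in the list. Mitf, which drives lysosomal genes, fell 2.48-fold, from 147–255 to 94.9 and 71.7 CPM. Nr1h3, the sterol receptor LXRα, was low, at 2.798–3.81 and then 1.96 and 1.27 CPM (adjusted p = 0.045), and lost its call without either TGFβ library or any of replicates 2 to 5 of the other group.

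The genes of phagocytes that handle lipid split in direction, with a median log2 fold change of 0.30. Of 25 tested, 8 rose (32%, against 9.57% of all genes tested), 6 fell (24%, against 6.52%) and 11 did not pass. The falls were Lpl, Plin2, Cd36, Fabp4, Lgals3 and Cd68. Lpl, lipoprotein lipase, stood at 9331, 9933, 10567, 10717 and 10539 CPM without TGFβ and at 791 and 954 with it, a fall of 11.7-fold (log2 -3.55 ± 0.43, SE, adjusted p = 1.8e-05, edgeR), and its ex vivo level was 31.2 ± 14.7 (SD, n = 5). Plin2, which coats lipid droplets, went from 3017, 2664, 2589, 3122 and 2969 to 1163 and 917 CPM, and Cd36 is given above. Lgals3, the carbohydrate-binding galectin 3, fell from 1627–2209 to 441 and 632 CPM, a call lost without TGFβ replicate 1. Cd68, a glycoprotein of lysosomes, was at 1902–2451 and then 1697 and 1336 CPM (adjusted p = 0.048), and its call was lost without any single library other than replicate 2 of the group without TGFβ. The rises were Abcg1, Abca1, Ch25h, Apoe, Cst7, Clec7a, Spp1 and Axl. Abcg1, an exporter of cholesterol to lipoproteins, rose from 13.6, 17.3, 23.1, 14.3 and 19.4 to 82.4 and 105 CPM, and Ch25h, the cholesterol 25-hydroxylase, from 29.6, 61.1, 19.8, 25.5 and 10.1 to 284 and 914.

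Apoe, the main brain apolipoprotein, was at 779.7, 289, 870.2, 266 and 1064 CPM and then 6224 and 2256. Its level thus varied widely both among the libraries without TGFβ and between the 2 with it. The groups did not overlap (6.49-fold, adjusted p = 0.0059), but the call was lost without TGFβ replicate 1 (adjusted p = 0.17). Gpnmb, a lysosomal glycoprotein of lipid-laden phagocytes, was at 3421, 1965, 2612, 2624 and 3771 and then 1325 and 869 CPM, without overlap and without a call (adjusted p = 0.078); limma on log2(TPM + 1) did call it (adjusted p = 0.0043). Tyrobp, the adaptor of Trem2, and the growth factor Igf1 overlapped between groups.

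Of 27 lysosomal genes tested, 6 rose (22.2%, against 9.57% of all genes tested), 4 fell (14.8%, against 6.52%) and 17 did not pass. The median log2 fold change was 0.14. Ctsd, the protease cathepsin D, was the most counted gene in 6 of the 7 libraries, with 7.85% and 5.58% of all counts in those with TGFβ, and Ctsb led in replicate 4 without it. The Ctsd levels were 31313, 29626, 34346, 22091 and 32975 CPM and then 85682 and 57011 (2.37-fold, adjusted p = 0.00029), against 8658 ± 958 (SD, n = 5) ex vivo. The cathepsins did not share a direction. Also called higher were Ctsf, from 29.1, 26.6, 30.8, 25.8 and 28.6 to 159 and 103 CPM, Ctsh, from 142–201 to 749.9 and 667, and Ctse, from 2.42–6.44 to 31.4 and 38.7. Called lower were Ctsb, cathepsin B, from 27986, 19421, 22219, 23859 and 25824 to 18204 and 14782 CPM (adjusted p = 0.039), and Ctsk, cathepsin K, from 3.42–12.2 to 1.14 and 1.88. The Ctsb call was lost without either TGFβ library or without replicate 1, 4 or 5 of the other group, and the Ctsk call without TGFβ replicate 1. Ctss, cathepsin S, was at 1859–3268 and then 4802 and 3456 CPM without a call (adjusted p = 0.070). Of 3 subunits of the proton pump that acidifies the lysosome, Atp6v0d2 fell from 82.7, 48.1, 61.1, 45.9 and 142 to 10.9 and 5.98 CPM and Atp6v1a from 741–1242 to 496 and 417, and Atp6v0d1, at 199–258 and then 175 and 171, gave no call (adjusted p = 0.077). Without TGFβ replicate 1 the list held 2 falls. Cholesterol synthesis gave 1 call, a fall, in 24 genes tested (4.17%, against 6.52% of all genes tested), with a list median of -0.29. The call was Fdft1 or squalene synthase, which went from 183–373 to 158 and 108 CPM (adjusted p = 0.0037, edgeR). It was lost without TGFβ replicate 2, and without TGFβ replicate 1 there were 5 falls.

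Of 12 matrix genes tested, 7 rose (58.3%, against 9.57% of all genes tested) and 5 did not pass (edgeR). None fell, against 6.52% of all genes tested, with 0 lower at unadjusted p under 0.05 and 0 with DESeq2. The median log2 fold change was 2.52. The risers included Fn1, Sparc and Tgfbi, given above, the osteopontin gene Spp1, and Col6a3, Col14a1 and Col27a1. Col27a1, a fibrillar collagen of cartilage, went from 22.1, 12.2, 14.7, 19.8 and 24.97 to 78.5 and 151 CPM (adjusted p = 5.6e-07). The main fibroblast collagens Col1a1 and Col1a2 were too low to be tested. Fibroblast markers summed to 51.9 to 114 CPM without TGFβ and 70.9 and 57.0 with it, of which 99.8% was Postn, and Col1a2, Col3a1, Lum and Pdgfra were at 0 in all 7 libraries. Of 15 proteases and inhibitors, 5 rose (33.3%, against 9.57% of all genes tested) and 3 fell (20%, against 6.52%). Mmp2, gelatinase A, rose from 1.84, 2.43, 1.93, 1.39 and 1.07 to 34.2 and 46.2 CPM (23.01-fold, adjusted p = 5.3e-09). The macrophage metalloelastase Mmp12 fell from 1944, 2730.4, 2226, 1191 and 2279 to 182 and 384 CPM and the collagenase Mmp13 from 36.9–87.8 to 4.02 and 4.602. Adam8, a membrane protease, fell from 2181–3427 to 1029 and 2026 CPM. The calls of Mmp12 and Adam8 were lost without TGFβ replicate 1, which left 1 fall in the list, and that of Adam8 also without replicate 1 or 4 of the other group. Plau, the urokinase gene, showed the division of the cultures without TGFβ most plainly, at 88, 1332, 837, 94.7 and 98.03 CPM, with 232 and 308 in the TGFβ libraries (adjusted p = 0.57). Its change was 1.53 on the log2 scale without replicates 2 and 3 (adjusted p = 6.1e-06) and -2.005 without replicates 1, 4 and 5 (adjusted p = 3.2e-05).

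Complement and Fc receptor genes divided evenly, with 6 rises, 6 falls (33.3% each) and 6 without a call among 18 tested. Over all genes tested 9.57% rose and 6.52% fell. The first component of the classical pathway rose: C1qa was at 1186, 1262, 1513, 1301 and 974 CPM and then 3453 and 2327, and C1qb at 1092–1517 and then 3027 and 1932. The receptor C3ar1, for the fragment C3a, fell from 3965, 2360.4, 2568, 3578 and 3940.0 to 946 and 898 CPM (3.56-fold, adjusted p = 3.5e-05). The Fc-like receptor Fcrls, found on microglia, rose from 307–957 to 3211 and 2506 CPM, and the activating Fc receptor Fcgr4 fell from 22.5–28.8 to 13.6 and 6.65. Without TGFβ replicate 1 there were 3 rises and 3 falls, and the calls of C1qa and C1qb were lost. Without TGFβ replicate 2 there were 5 rises and 1 fall, and that of Fcgr4 was lost.

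Among 14 integrins tested, 5 rose (35.7%, against 9.57% of all genes tested) and 1 fell (7.14%, against 6.52%). The median log2 fold change was 0.36. Of the β2 family of leukocytes, 3 of 4 members tested rose: the shared chain Itgb2 went from 695, 741, 715, 725 and 744 to 1494 and 1278 CPM, its partner Itgam (CD11b) from 936–1547 to 2436 and 2545, and its partner Itgal (LFA-1) from 3.31, 12.7, 11.6, 3.68 and 2.77 to 79.6 and 149.7. A further partner, Itgax (CD11c), was at 38.8, 91.3, 117, 18.5 and 61.8 and then 157 and 71.2 CPM, without a call (adjusted p = 0.28). Itgal lay above the ex vivo level of 2.2 ± 1.94 (SD, n = 5). Itga9 was the 1 fall, from 49–74.9 to 29.1 and 22.5 CPM. Itgam encodes an antigen by which the cells were sorted before culture.

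Inflammatory genes did not share a direction, with a median log2 fold change of 0.20. Of 36 cytokine, chemokine and inflammation genes tested, 7 rose (19.4%, against 9.57% of all genes tested). A further 3 fell (8.33%, near the 6.52% of all genes tested) and 26 did not pass. Ptgs1, the constitutive cyclooxygenase COX-1, rose from 19, 10.3, 10.2, 11.7 and 10.4 to 437 and 421 CPM (34.8-fold, adjusted p = 1.1e-09), with 1040.5 ± 118 (SD, n = 5) ex vivo. Icam1, an adhesion ligand of the β2 integrins, went from 27.8–44.6 to 151 and 184 CPM. Tlr2, a receptor for bacterial lipoproteins, was at 222, 61.5, 92.2, 152 and 172 CPM and then 621 and 834, and Cxcl16, a membrane-bound chemokine, at 138–301 and then 412 and 668. Nos2 and Il1b, mediators of acute inflammation, were called from low levels, at 2.28 and 20.5 and 1.78 and 2.65 CPM with TGFβ against 0–0.871 and 0–0.929 without. The calls of Nos2, Il1b and Cxcl16 were lost without TGFβ replicate 2, and the list then held 3 rises.

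The genes called lower were CC chemokines, at a share of the list near that of all genes tested. Ccl9 was at 993, 950.2, 689, 1405 and 711 CPM and then 135 and 109 (7.81-fold, adjusted p = 0.0030), Ccl6 at 116–251 and then 105 and 37.2, and Ccl7 at 0.128–7.41 and then 0 and 0.0708. The Ccl9 call was lost without TGFβ replicate 2 and that of Ccl6 also without replicate 2, 3 or 4 of the other group. The Ccl7 call was lost without either TGFβ library or without replicate 2 or 4 of the other group. Ccl3 and Ccl4, which attract leukocytes, were lower in both TGFβ libraries than in any 7 d library without TGFβ. They were at 71.6 and 111 CPM from 228–531 and at 33.8 and 82.4 from 149–505, without a call (adjusted p = 0.093 and 0.11, edgeR). How large a share of all genes tested lay this way was not counted. DESeq2 called both Ccl3 and Ccl4 (adjusted p = 0.034 and 0.043) and 8 falls in the list. With edgeR there was 1 fall without replicate 4 of the untreated group and 1 without TGFβ replicate 2. Cd14, the lipopolysaccharide co-receptor, was at 985–1309 and then 523 and 915 CPM (adjusted p = 0.070).

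Among 20 antigen presentation genes, 4 rose (20%, against 9.57% of all genes tested), 1 fell (5%, against 6.52%) and 15 did not pass. The median log2 fold change was -0.13. The rises in MHC class II concerned the loading chaperone first: H2-DMa went from 5.596, 5.52, 7.36, 5.39 and 7.597 to 85.1 and 58.9 CPM (11.4-fold, adjusted p = 1.1e-09). H2-Ab1, a class II chain, went from 1.03–2.91 to 13.2 and 15.1 CPM, and H2-DMb1 from 13.5–28.3 to 43.8 and 40.5. The class II chains H2-Aa and H2-Eb1 and the class II regulator Ciita gave no call. Cd40, a costimulatory receptor, reached 2.15 and 3.12 CPM from 0.0368–0.789, and H2-D1, a class I heavy chain of a multigene family that can share reads, fell from 741–1358 to 607 and 602. The calls of H2-DMb1, Cd40 and H2-D1 were lost without TGFβ replicate 1, leaving 2 rises in the list. Those of Cd40 and H2-D1 were also lost without TGFβ replicate 2, that of Cd40 without replicates 1, 4 or 5 of the other group and that of H2-D1 without replicate 3 or 4. Without replicates 1, 4 and 5 together there was 1 rise.

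Of 19 glycolysis and hypoxia genes tested, 10 rose (52.6%, against 9.57% of all genes tested) and 9 did not pass (edgeR). None fell, against 6.52% of all genes tested, and the median log2 fold change was 0.60. At unadjusted p under 0.05, 11 were higher and 1 lower (edgeR), and DESeq2 called 1 lower. Egln3, an oxygen-sensing hydroxylase that the hypoxia factor HIF induces, went from 1.22, 2.297, 1.86, 0.9901 and 3.37 to 86.3 and 53.4 CPM (35.9-fold, adjusted p = 1.6e-07). Other rises were smaller. The glucose transporter Slc2a1 was at 78.7–99.9 and then 160.3 and 233 CPM, the glycolytic enzyme Pfkl, a phosphofructokinase, at 82.8–118 and then 259.8 and 251, and enolase Eno1 at 117–145 and then 253 and 309. The transporter Slc2a3 and the enzymes Hk1, Gpi1, Pfkp, Tpi1 and Pgam1 gave no call. Pdk1, which holds pyruvate out of the mitochondrion, rose 2.27-fold and Bnip3, a mitophagy receptor, 3.14-fold. The most counted of the list that gave no call were Pkm, at 949–1709 and then 1544 and 1917 CPM, and Hmox1, at 811–1305 and then 1503 and 1479.

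**Figure D4:**
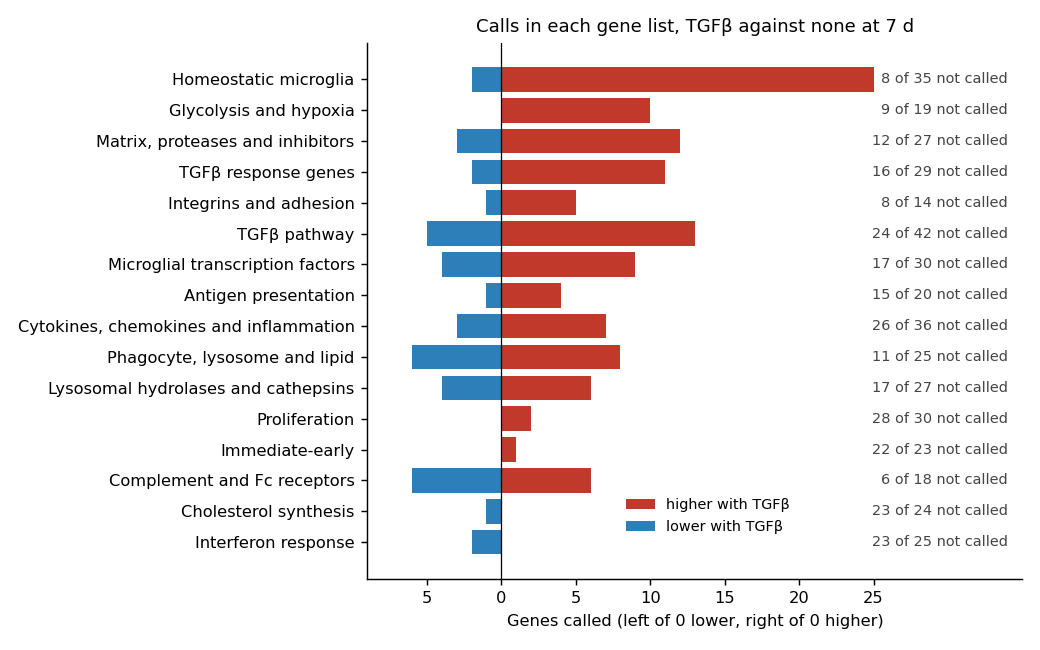
Number of genes called in each of the 16 lists, with rises to the right of 0 and falls to the left, and the number without a call printed at the right. The homeostatic list holds 25 rises among 35 genes, and the complement list 6 rises and 6 falls.

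A pair of lists varied so much between libraries that their counts turned on single libraries. Proliferation genes had a median log2 fold change of 1.35, yet only Cenpf and Cdc20 of 30 tested were called (6.67%, against 9.57% of all genes called higher; 12 were higher and 0 lower at unadjusted p under 0.05, edgeR). Mki67, the proliferation antigen, was at 35.97, 151, 48.1, 65.6 and 7.55 CPM without TGFβ and at 125 and 421 with it (adjusted p = 0.058), and Top2a, topoisomerase IIα, at 22.8, 154, 52.6, 45.2 and 6.02 and then 71.1 and 256 (adjusted p = 0.19). Without TGFβ, replicate 2 was highest and replicate 5 lowest, and TGFβ replicate 2 exceeded all. Cdc20, an activator of the anaphase-promoting complex, was at 1.99, 8.57, 4.495, 2.297 and 0.768 and then 8.77 and 25.4 CPM, and Cenpf, a kinetochore protein, at 3.94, 21.4, 9.07, 6.57 and 1.32 and then 17.9 and 58.8; neither was called without TGFβ replicate 2. Without replicate 2 of the untreated group 22 of the 30 genes were called higher, and without replicates 2 and 3 together 29. Without replicates 1, 4 and 5 together 0 were. Counts were 6 without TGFβ replicate 1, 0 without TGFβ replicate 2 and 1 without replicate 1, 3 or 4 of the untreated group.

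Genes of the type I interferon response had a median log2 fold change of -2.23, with 2 of 25 called lower (8%, against 6.52% of all genes) and none higher. At unadjusted p under 0.05 (edgeR), 19 were lower and 0 higher, and DESeq2 called 14 lower and 0 higher. Oas2, which makes the activator of an antiviral ribonuclease, was at 75.4, 71.97, 74.5, 120.4 and 12.9 CPM without TGFβ and at 2.79 and 6.09 with it (log2 -3.99 ± 1.22, SE, adjusted p = 0.037). Ifi204, a DNA sensor, was at 210.2, 235, 276, 252 and 142 and then 51.03 and 54.3 CPM. Oasl2 was at 147, 255, 287, 199 and 36.6 and then 17.6 and 38.3 CPM, where replicate 5 lay below 1 of the TGFβ libraries (adjusted p = 0.12). The signal transducer Stat2 was at 153–296 and then 115 and 86.02 CPM. On the mean of log2(CPM + 1) over the list, replicate 5 without TGFβ was at 3.71, between the TGFβ libraries at 3.25 and 3.89, while the other 4 were at 5.38 to 5.84. Without replicate 5 the list had 7 falls, and in a fit of the 7 libraries alone 10. Without either TGFβ library there were 0, and 1 without any of replicates 1 to 4; the calls of Oas2 and Ifi204 were lost without either TGFβ library, and that of Oas2 without any of replicates 1 to 4 as well.

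**Figure D5:**
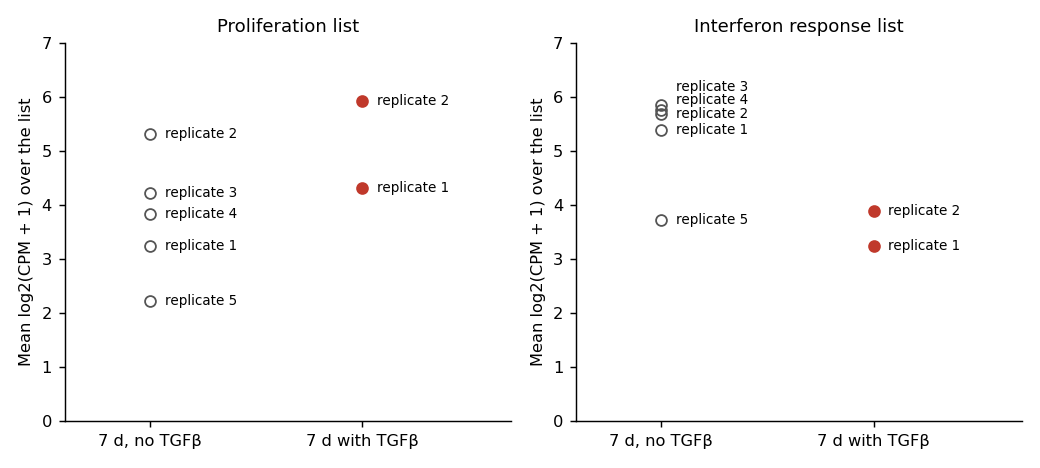
Mean of log2(CPM + 1) over the 30 proliferation genes (left) and the 25 interferon genes (right), with 1 circle per library and its replicate number. The proliferation values of the groups overlap, and in the interferon list replicate 5 without TGFβ, at 3.71, lies with the TGFβ libraries.

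Immediate-early genes, which dissociation and handling raise, had a median log2 fold change of -0.54. They gave 1 rise in 23 tested (4.35%, against 9.57% of all genes tested). That was Ier3, at 4.12, 3.63, 3.27, 3.09 and 3.24 CPM and then 7.58 and 32.99, with TGFβ replicate 2 far above replicate 1; its call was lost without TGFβ replicate 2 or any of replicates 2 to 5 of the other group. Klf6, Atf3 and Jun were lower in both TGFβ libraries than in any 7 d library without TGFβ, at 246 and 276, 151 and 98.3 and 108 and 159 CPM. They were not called (adjusted p = 0.23, 0.50 and 0.53, edgeR). In these the ex vivo libraries, which share the spread estimate, ranged from 163 to 1264, from 16.5 to 1149 and from 259.8 to 9133 CPM. In a fit of the 7 libraries alone the adjusted p of Atf3 was 0.010 and that of Klf6 0.0095. How many of all genes tested were lower in both TGFβ libraries than in every 7 d library without TGFβ was not counted.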

How the data were processed

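Sorted mouse microglia were profiled by poly(A) RNA sequencing, with repeated poly(A) selection, per the labels' protocols. The authors deposited a table of raw read counts per gene and a table of TPM values for the same libraries, and, per the files, peak start and end positions (pooled peak lists) for ATAC-seq, H3K27ac and PU.1. The submitters' processing notes name R 3.3.1, HOMER, STAR and Bowtie2, and the build mm10, without roles; the sources used here do not state the strand setting of the counting. No gene's counts are missing a name, and no other column of per-sample values was used.

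Counts were scaled by TMM and filtered with filterByExpr in edgeR 4.0.16 (R 4.3.3), leaving 13840 of 24537 genes. A quasi-likelihood model of group means over 17 microglial libraries gave the TGFβ effect. These were the ex vivo, 6 h, 24 h and 7 d libraries, the last without and with TGFβ. Benjamini-Hochberg adjustment was over all genes tested, with a threshold of 0.05. CPM values use the TMM-scaled library size, while marker sums and Rn45s use total counts. Standard errors are the absolute log2 fold change over the square root of the F statistic. Alternatives used DESeq2 1.42.0, limma 3.58.1 on log2(TPM + 1) or log2(TPM + 0.1), keeping genes of at least 1 TPM in at least 2 libraries, other scalings, no filter, the 7 libraries alone, a replicate block and each library left out; the scripts were tested on simulated data. Peaks were intersected with bedtools 2.31.1 (overlap of at least 1 bp). For this the 1-based RefSeq interval starts were lowered by 1, and peak positions were used as given. Figures used matplotlib 3.10.9.

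Named genes are 12 fixed ones, the 10 rises and 10 falls of largest size with at least 20 CPM and no overlap, and per list up to 6 called and 3 uncalled genes; the pathway list, up to 4 per role, with Ctsb, Ctsk, Atp6v0d1, Lgals3, Cd68 and Itgax added later, once their values were known; some genes picked by these rules are not reported here. The comparison and lists were chosen with earlier results of these data known.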

Additional observations from a re-analysis of the deposited data

Results flagged for a closer look

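In groups of 5 libraries, 1 library was far from the other 4 by Dixon's ratio (above 0.71) in 8 of 179 groups of values examined, and chance flags about 1 in 20 groups. Replicate 1 without TGFβ was the outlying one, on the high side, for Pmepa1 at 136 CPM (next 61.6) and Ptgs1 at 19.0 CPM (next 11.7), both of which rose with TGFβ. Replicate 5 was high for Tgfb1, at 471 CPM, and low for the mean log2(CPM + 1) of the interferon response list, at 3.71 against 5.38 to 5.84 in the other 4. Replicate 3 was high for Tgfb2, at 0.334 CPM. Replicate 4 was low for Golm1, at 87.4 CPM, and replicate 2 for Ctsh, at 142 CPM. Ex vivo replicate 2 was high for Tgfbr1, at 4026 CPM against 2585 in the next library.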

How the results depend on the processing

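Rises numbered 1151 to 1445 and falls 763 to 891 when 1 library without TGFβ was left out; without either TGFβ library they were 935 and 885 rises, and 411 and 375 falls, the lone TGFβ library then being assumed to vary like the other groups. Falls were 1547 with limma on log2(TPM + 1), 1546 with log2(TPM + 0.1) and 1391 without the TPM filter, against 902 in the count test, and rises 942, 928 and 969. The other alternatives kept both counts within 1.5 times: 1538 rises and 1147 falls with DESeq2, 1397 and 812 with RLE scaling, 1266 and 1013 with upper-quartile scaling, 1268 and 727 without the count filter, 1058 and 743 with the 7 libraries alone, 1725 and 1008 without replicates 2 and 3 of the group without TGFβ, and 1491 and 1228 without its replicates 1, 4 and 5. The groups share replicate numbers 1 and 2, which the labels tie to nothing. With the replicate block there were 1216 rises and 823 falls. The deviations of same-numbered libraries from their group means correlated at 0.113 and 0.375, with only 2 pairs. TGFβ replicate 1 correlated best with replicate 5 of the other group (0.418). With 2 TGFβ libraries these deviations are mirror images, so each value for replicate 1 is that for replicate 2 with the sign reversed. They are therefore not separate checks and cannot show whether the libraries were paired.

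Of 115 named genes that were called, 72 stayed called under every alternative that could be fitted, and none changed sign; 1862 of 2063 single values kept their side of the threshold and 201 fell short of it. The call was lost under 12 of 18 alternatives for Skil, Ier3 and Cd68, 11 for Smad3 and Nr1h3, and 10 for Bambi, Ccl7, Oas2 and Ctsb. Leaving out TGFβ replicate 1 ended 28 of these calls and TGFβ replicate 2 ended 31. Without replicates 2 and 3 of the other group together 11 were lost, and without its replicates 1, 4 and 5 together 19; Ier3, Bambi, Oas2 and Cd68 were lost in both of these fits, Skil, Nr1h3, Smad3, Ccl6, Ccl7, H2-D1 and Tgfbr3 in the first alone, and the others in the second alone. Of the 22 named genes that were not called, Tgfbr2 changed sign to 0.052 (log2) without replicates 2 and 3, 0.033 without replicate 3, 0.018 with the block and 0.13 without TGFβ replicate 2 (range with 1 library left out, -0.21 to 0.13), and Plau to 1.53 without replicates 2 and 3. The cause was not tested. With 2 TGFβ libraries, a difference that varies between cultures cannot be placed well, and genes under about 1 CPM rest on few reads.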
